A study of Ovis aries with 16 samples.

Results

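The kynurenine pathway carries tryptophan to NAD, the redox cofactor, and 8 of its genes were followed through liver and vastus lateralis muscle of female sheep: TDO2, IDO1, AFMID, KMO, KYNU, HAAO, ACMSD and QPRT. The genes were chosen by their place in the pathway, starting from AFMID, which was picked on its measured values because it was higher in every BPA liver than in every control liver. All 8 symbols were found among the 28524 rows of the deposited table. The question asked of the remaining 7 genes was whether they moved with AFMID.

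The animals were 8 Suffolk ewes in 2 treatment groups, and each gave a liver and a muscle sample, so that 16 libraries were sequenced after ribosomal RNA depletion. The 4 prenatal BPA animals (sheep 910, 918, 977 and 984) were born to mothers injected under the skin every day with 0.5 mg of bisphenol A per kg, dissolved in corn oil, from gestation day 30 to day 90. The 4 control animals (sheep 902, 908, 924 and 928) were born to mothers given corn oil alone. All offspring were sampled at about 21 months, after a 48 hour fast, late in the follicular phase. BPA is a plasticizer with oestrogen-like activity, and exposure ended long before the tissues were taken.

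The liver is the main site of this pathway. TDO2, a haem-dependent dioxygenase that glucocorticoids and tryptophan induce in rodent liver, opens the indole ring of tryptophan, and IDO1, which is known as an interferon target, catalyses the same step outside the liver. AFMID (arylformamidase) then releases kynurenine, KMO hydroxylates it, KYNU removes its side chain and HAAO opens the second ring. The product stands at a fork, where ACMSD leads it away from NAD and QPRT turns its cyclized form, quinolinate, into a precursor of NAD.

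Depth is given in M, or 1e6 reads. BPA livers 910, 918, 977 and 984 held 17.92, 4.66, 7.27 and 10.64 M and control livers 902, 908, 924 and 928 held 4.39, 18.55, 17.93 and 19.28 M, so that depth ran nearly with treatment. Muscle libraries held 15.15 to 26.54 M in BPA animals and 16.16 to 28.54 M in controls. Values below are normalized read counts, which are reads divided by 1 factor per library. They are not divided by transcript length, so levels are compared between libraries and not between genes. Differences are BPA minus control on log2(value + 1), with the SE and the Benjamini-Hochberg adjusted p from limma.

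Both tissues carried their defining transcripts, but 2 of the livers stood apart. All 15 hepatocyte markers were detected in every liver, and all 9 myofibre markers in the table were called lower in liver than in muscle. Control liver 902 had 10450 of ALB, which encodes serum albumin, against 677300 to 739600 in the other 3 control livers. COL1A1, the main fibrillar collagen of fibroblasts, measured 43400 in control liver 902 and 1046 to 1956 in the other controls. BPA liver 910 had 548200 of ALB, whereas BPA livers 918, 977 and 984 had 197700, 112300 and 91330. The median deviation of 17 ribosomal protein transcripts from their mean over the 8 livers was 1.19 in BPA liver 910, -1.51, -1.57 and -1.94 in BPA livers 918, 977 and 984, and 0.10 to 1.39 in the control livers (log2). BPA estimates were below control for 13 of 15 hepatocyte, 11 of 11 macrophage, 10 of 10 fibroblast, 8 of 10 endothelial, 6 of 7 cholangiocyte and 5 of 7 lymphocyte markers tested in liver, and for 17 of 17 ribosomal proteins, with none past an adjusted p of 0.05. Of the 4 myofibre markers tested, 3 had estimates above control, none called, and ACTA1, skeletal actin, measured 2.29, 43.72, 4.99 and 51.24 in BPA livers and 18.84, 0.688, 1.42 and 1.34 in control livers. Differences of the members tested in liver are also given without control liver 902 or without both it and BPA liver 910, and the fit without both called 43.1% of the 15296 genes tested. In that fit 12 of 15 hepatocyte markers, 10 of 11 macrophage markers and 17 of 17 ribosomal proteins were called lower, and 3 of 4 myofibre markers higher.

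TDO2 and AFMID, which encode the first and the next enzyme of the route, were higher in all 4 BPA livers than in any control liver, and the other 6 genes overlapped between the groups. Of all genes tested in liver, 3.63% had every BPA library above every control library. None of the 6 members tested besides AFMID passed an adjusted p of 0.05, and neither did any other gene, so that 0% of the 15689 genes tested were called by limma. Without adjustment 2838 genes had a p under 0.05, while edgeR called 0 and DESeq2 195, none of the 6 members among them. In bulk tissue, fewer cells of a type and less RNA per cell cannot be told apart.

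TDO2 measured 4139, 7535, 4698 and 5763 in BPA livers 910, 918, 977 and 984, against 1651, 3317, 3419 and 3142 in control livers 902, 908, 924 and 928. The lowest BPA liver thus lay above the highest control, and the controls other than 902 lay close together. The means were 5534 ± 1490 in BPA livers and 2882 ± 829 in control livers (SD, n = 4 each), a ratio of 1.92. The log2 difference was 0.96 ± 0.38 (SE), with an unadjusted p of 0.0293 and a limma adjusted p of 0.258. Without sheep 910 and 902 the means were 5999 ± 1430 in BPA livers and 3293 ± 140 in control livers (SD, n = 3 each). The limma adjusted p for TDO2 was then 0.0167, in a fit that called 43.1% of genes. It was 0.0425 when all 16 libraries were fitted together, where 14.7% of genes were called. Across all alternatives the adjusted p of TDO2 ran from 0.0167 to 1, with a positive difference in each.

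AFMID, by which the pathway was picked, measured 1172, 2804, 2676 and 2711 in BPA livers 910, 918, 977 and 984. In control livers 902, 908, 924 and 928 it measured 772.6, 638.5, 810.4 and 553.6. BPA liver 910 was the lowest of its group, at 0.429 times the mean of the other 3, while control liver 902 was within the range of the other controls. The means were 2341 ± 781 in BPA livers and 693.8 ± 119 in control livers (SD, n = 4 each), 3.37-fold, and the log2 difference of 1.69 ± 0.35 (SE) is given as a description. Without sheep 910 and 902 the means were 2730 ± 66.5 in BPA livers and 667.5 ± 131 in control livers (SD, n = 3 each).

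IDO1 was close to the detection limit in liver. It had 16, 4, 5 and 7 reads in BPA livers 910, 918, 977 and 984 and 0, 23, 6 and 13 reads in control livers 902, 908, 924 and 928. Its mean of 8.17 ± 2.91 in BPA livers and 7.20 ± 6.76 in control livers (SD, n = 4 each) was under the minimum mean of 10, so it was not tested. The 0 in control liver 902 allows a level of up to 5.65 at that depth (3 reads, counting error only), which is above the 4.27 of control liver 924 and just under the 5.88 of BPA liver 984. IDO2, a paralogue of IDO1 and its neighbour in the annotation, had 1674, 1414, 1245 and 1207 in BPA livers and 209.2, 1486, 1163 and 1568 in control livers, in the same order of animals.

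**Figure D1:**
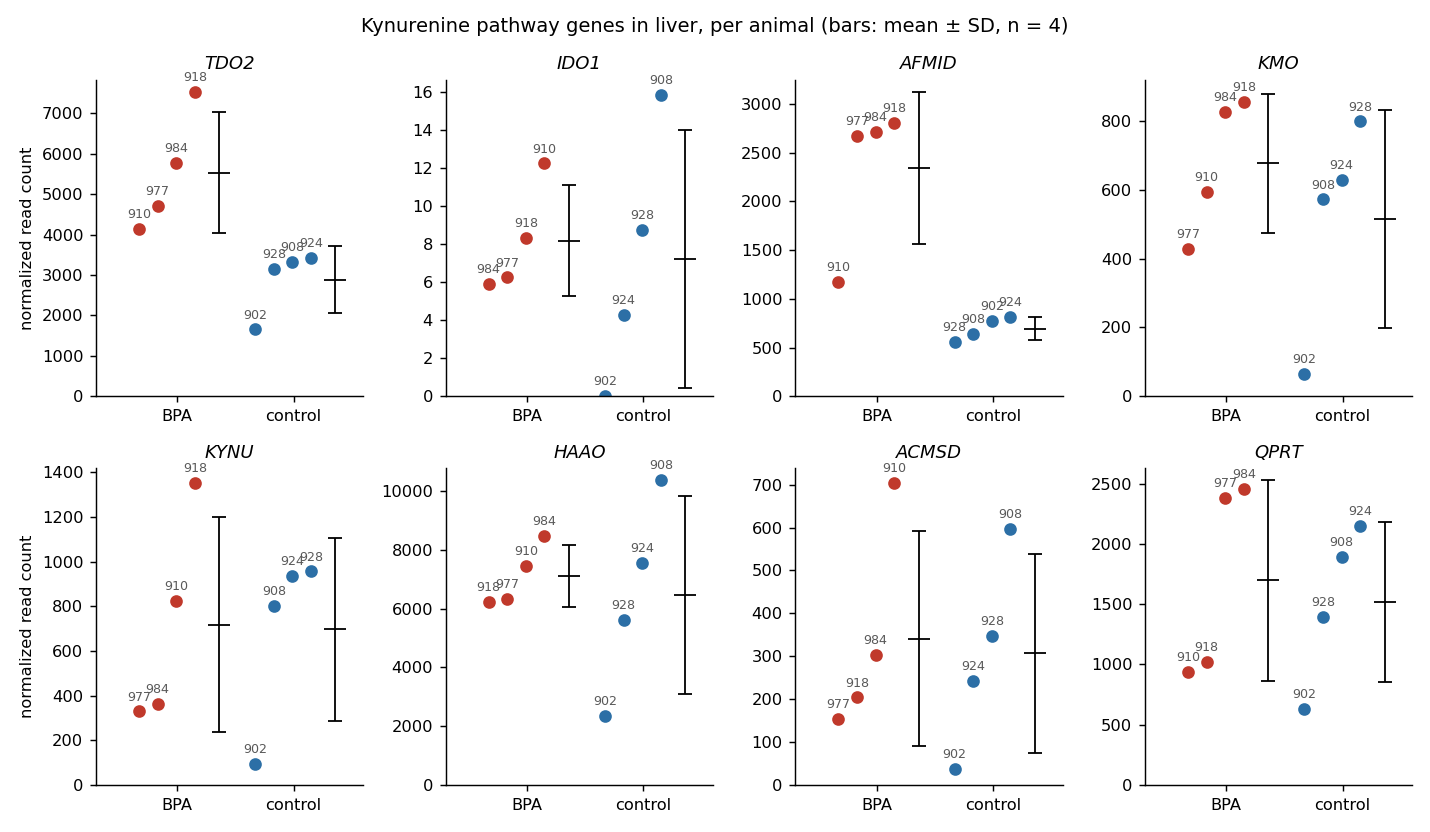
Normalized read count (y axis) of the 8 kynurenine pathway genes in each BPA liver (left, red) and control liver (right, blue), labelled with the sheep number, with mean ± SD of 4 animals as bars. TDO2 and AFMID have every BPA liver above every control liver, and control liver 902 is the lowest library for all genes but AFMID.

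The middle of the pathway, KMO, KYNU and HAAO, showed no difference beyond the spread between animals. KMO, the hydroxylase of the outer mitochondrial membrane, measured 594.6, 855.7, 429.1 and 827.4 in BPA livers and 64.07, 571.8, 627.7 and 798.6 in control livers. Control liver 902 had 0.0962 times the mean KMO of the other 3 controls, which lay inside the BPA range. The KMO difference was 0.82 ± 0.72 (SE) with a limma adjusted p of 0.527, and -0.02 ± 0.32 without control liver 902 and 0.03 ± 0.30 without BPA liver 910 as well.

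KYNU, which cleaves hydroxykynurenine, measured 823.1, 1355, 329.3 and 363.7 in BPA livers and 92.33, 800.9, 936.2 and 956.3 in control livers. The BPA livers split into a high pair (910 and 918) and a low pair (977 and 984), and all controls except 902 lay between those pairs or within the high one. The KYNU difference was 0.25 ± 0.78 (SE) with a limma adjusted p of 0.873, and -0.57 ± 0.48 without control liver 902 and -0.71 ± 0.50 without BPA liver 910 as well. HAAO, the ring-opening dioxygenase, measured 7459, 6232, 6349 and 8476 in BPA livers and 2354, 10380, 7567 and 5623 in control livers. Its BPA values all lay within the control range, and its difference was 0.32 ± 0.49 (SE) with a limma adjusted p of 0.733, and -0.13 ± 0.27 without control liver 902 and BPA liver 910.

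ACMSD and QPRT, the enzymes of the fork, did not separate the groups. ACMSD measured 704.6, 204, 153.4 and 302.4 in BPA livers and 37.69, 597.3, 243.1 and 347.6 in control livers. BPA liver 910 had 3.2 times the mean ACMSD of the other 3 BPA livers, and control liver 902 had 0.0952 times that of the other 3 controls. The ACMSD difference was 0.45 ± 0.80 (SE) with a limma adjusted p of 0.772. It was -0.80 ± 0.38 without both of these livers (limma adjusted p = 0.122) and 1.69 ± 0.45 with a covariate for depth above or below 15 M (0.287), so that its sign depended on how those livers were treated. Its adjusted p was 0.122 to 1 over its alternatives.

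QPRT measured 934.7, 1020, 2383 and 2456 in BPA livers and 633.1, 1895, 2147 and 1397 in control livers. Here BPA livers 977 and 984 were the high pair, the reverse of KYNU. The QPRT difference was 0.16 ± 0.49 (SE) with a limma adjusted p of 0.874, and 0.02 ± 0.36 without control liver 902 and BPA liver 910. The ratio of QPRT to ACMSD, which follows the balance of the 2 transcripts at the fork, was 1.33, 5.0, 15.5 and 8.12 in BPA livers and 16.8, 3.17, 8.83 and 4.02 in control livers. The 2 groups overlapped over most of the range of this ratio.

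**Figure D2:**
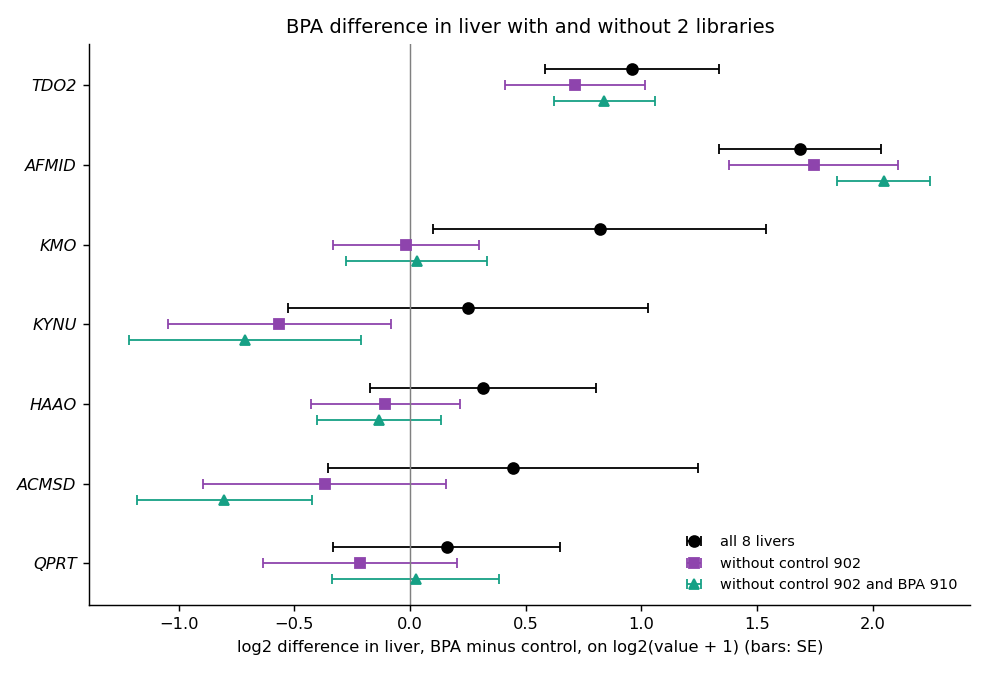
Log2 difference between BPA and control livers (x axis, on log2(value + 1)) for the 7 members with a mean of at least 10, with the SE as bars, over all 8 livers (black), without control liver 902 (purple) and without control liver 902 and BPA liver 910 (green). TDO2 and AFMID stay above 0 in each, whereas KYNU, HAAO and ACMSD lie below 0 in both sets without control liver 902.

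Apart from TDO2 and AFMID, the direction of the members depended on control liver 902. AFMID picked the pathway by its liver values, so it is left out of the following counts. Over the 8 livers, all 6 other members tested had positive estimates, from 0.16 (QPRT) to 0.96 (TDO2). The median of all genes tested was -0.01. Without control liver 902, TDO2 was positive and the other 5 negative, from -0.57 (KYNU) to -0.02 (KMO), against a median of -0.01 for all genes. QPRT was also negative without BPA liver 977 (-0.05) or BPA liver 984 (-0.07), and KYNU without BPA liver 918 (-0.14). Without both sheep 902 and 910, TDO2, KMO and QPRT were positive and KYNU, HAAO and ACMSD negative. When a covariate split the livers at a depth of 15 M, all 6 were positive, against a median of 0.03 for all genes, and none was called. KMO was then 1.61 ± 0.66 (SE), KYNU 1.22 ± 0.66, HAAO 0.77 ± 0.41, TDO2 1.08 ± 0.36 and QPRT 0.29 ± 0.55, while AFMID was at 1.33 as a description. In that fit control liver 902 was the only control under 15 M and BPA liver 910 the only BPA liver over it. In control liver 902 the hepatocyte markers had a median deviation of -3.05 and the fibroblast markers one of 4.60 (log2), and their part in the low pathway values of that liver was not tested.

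Both TDO2 and AFMID were highest in BPA livers 918, 977 and 984, whose hepatocyte markers summed lower than in any other liver but control liver 902. Control liver 902 had the lowest marker sum and the lowest TDO2 value, but not the lowest AFMID value. The part of hepatocyte content in these values was not tested. The summed level of the 15 markers was 1530000, 470600, 351200 and 316000 in BPA livers 910, 918, 977 and 984 and 71460, 1505000, 1614000 and 1639000 in control livers 902, 908, 924 and 928, with no marker at 0. When each liver was scaled to these markers, the difference was 1.46 ± 0.98 (SE) for TDO2 and 2.18 ± 1.23 for AFMID, on a scale where the median of all genes moved to 0.48. The 11 macrophage markers summed to 1580 to 7832 in BPA livers and 8275 to 11480 in control livers, again with none at 0. The median deviations of the macrophage markers and of the ribosomal protein transcripts were lower in BPA livers 918, 977 and 984 than in every control liver, and their part in the TDO2 and AFMID differences was not tested.

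**Figure D3:**
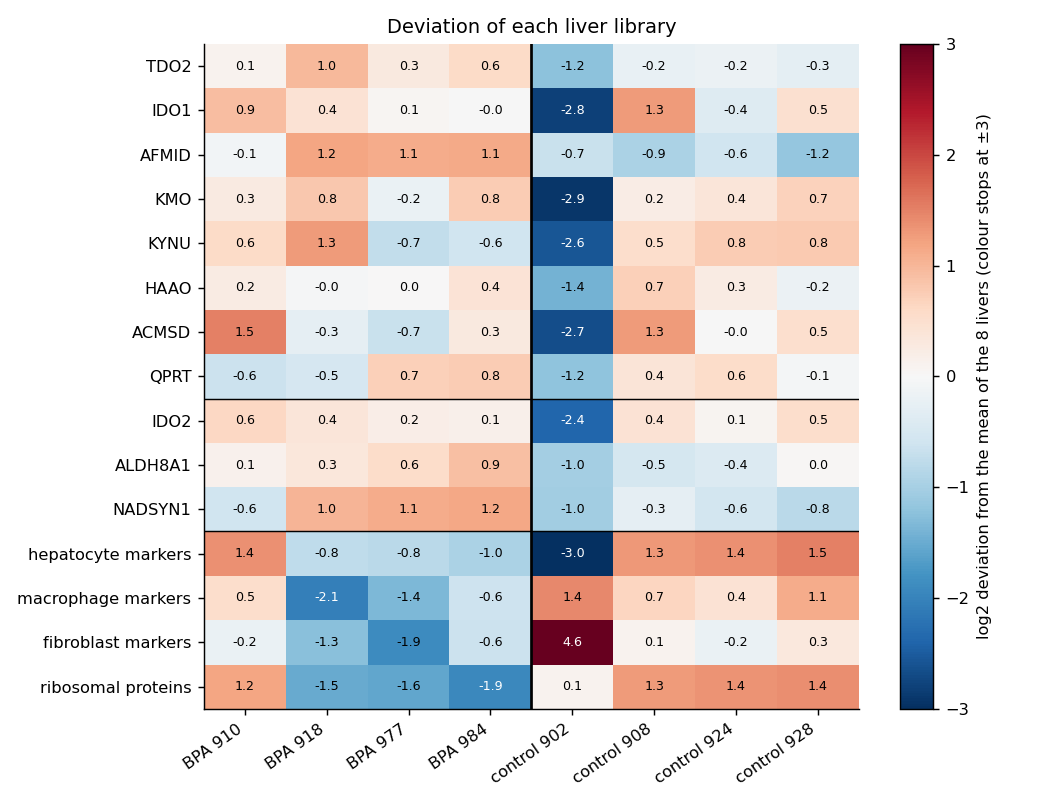
Log2 deviation of each liver library (columns, BPA left and control right) from the mean over the 8 livers, for the 8 members, 3 further pathway genes and the median of 4 marker lists (rows), with colours ending at ±3. Control liver 902 is below the mean for every member, though within the range of the other controls for AFMID, and high for fibroblast markers (4.6). BPA liver 910 resembles controls 908, 924 and 928 in its hepatocyte and ribosomal rows (1.4 and 1.2).

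AFMID and TDO2 differed from each other in their detailed pattern. The ratio of AFMID to TDO2 was 0.283, 0.372, 0.57 and 0.47 in BPA livers and 0.468, 0.193, 0.237 and 0.176 in control livers. Likeness was measured as the root mean square difference between the log2 deviations of 2 genes over the 8 livers, so that 0 means the same pattern. Among the genes most like AFMID, of 13231 compared, were FSD2 (0.189), IQANK1 (0.206), DSG3 (0.220) and RSPH9 (0.264). TDO2 was at rank 1090 (0.596), QPRT at 5556, HAAO at 5732, KMO at 8137, KYNU at 9994 and ACMSD at 10575. FSD2, for example, averaged 334.4 ± 134 in BPA livers and 114.3 ± 21.9 in control livers (SD, n = 4 each). Genes were ranked by likeness to AFMID over these same livers, so such a gap between the groups is built in.

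The genes most like TDO2 were ITGB3 (0.127), OARD1 (0.130), FBXW2 (0.152), EDNRA (0.157) and C22H10orf143 (0.179). HAAO was the nearest member to TDO2, at rank 1679 (0.526), and AFMID was at rank 2632 (0.596). A flat gene would lie slightly under the SD of TDO2 itself, which was 0.657 (log2), so values near it do not show a shared pattern. Every gene was compared over the same 8 libraries, which differ in depth, and the likeness is a description.

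The genes next to AFMID in the RefSeq order were not higher in BPA livers. BIRC5, a mitotic survival factor, averaged 54.95 in BPA livers and 82.45 in control livers, with a difference of -1.21 and a limma adjusted p of 0.349. TK1, a thymidine kinase of dividing cells, averaged 4.818 in BPA livers and 16.02 in control livers, with a difference of -1.51 and a limma adjusted p of 0.27. SPN, which overlaps QPRT in that annotation, averaged 8.48 in BPA livers and 17.5 in control livers, a small count beside that of QPRT. The other neighbours tested in liver were CTSO (beside TDO2), IDO2, CHML and FH (beside KMO), ARHGAP15 (beside KYNU), OXER1 and LOC105606921 (beside HAAO), CCNT2 (beside ACMSD) and C24H16orf54 (beside QPRT), with limma adjusted p from 0.256 to 0.952. The strand setting of the read counting is not given in the sources used here, so reads of overlapping genes could not be separated. Annotated partners that overlap AFMID (a pseudogene) and ACMSD were not analysed here.

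In the wider pathway, ALDH8A1 and NADSYN1 had high values in most BPA livers without passing the test over all 8 livers. The side-branch list held IDO2 and genes that lead to kynurenic acid or to full oxidation. Of its 6 genes, 5 had positive and 1 negative estimates in liver, with a median of 0.49, and none was called. ALDH8A1, the aldehyde dehydrogenase downstream of ACMSD, measured 2997, 3446, 4032 and 5133 in BPA livers and 1353, 1896, 2063 and 2804 in control livers. Its BPA values all lay above its control values, as did those of 3.63% of all genes tested in liver. Its difference was 0.96 ± 0.34 (SE) with a limma adjusted p of 0.256. Without sheep 902 and 910 these were 0.90 ± 0.24 and 0.0175, in a fit that called 43.1% of all genes tested. GOT2, a mitochondrial aminotransferase that can also act on kynurenine, averaged 1747 ± 1050 in BPA livers and 4209 ± 1990 in control livers (SD, n = 4 each), with a difference of -1.24 and a limma adjusted p of 0.285, against -2.11 ± 0.26 (SE) and 0.000771 without sheep 902 and 910.

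The NAD synthesis list also held genes of NAD and nicotinamide conversion and of NAD transport, such as NNMT, AOX1, NNT and SLC25A51. Among its 13 genes tested in liver, 8 had positive and 5 negative estimates, with a median of 0.38 and none called. NADSYN1, which completes NAD on the route fed by QPRT, measured 742.8, 2282, 2414 and 2484 in BPA livers and 540.8, 920.7, 759.2 and 635.5 in control livers. BPA livers 918, 977 and 984 were higher than every control, as for AFMID, and BPA liver 910 lay inside the control range. The NADSYN1 difference was 1.35 ± 0.43 (SE) with a limma adjusted p of 0.256, and 1.65 ± 0.20 with 0.000752 without sheep 902 and 910. NMRK1, a nicotinamide riboside kinase, averaged 581.3 ± 226 in BPA livers and 403.9 ± 195 in control livers (SD, n = 4 each), with a limma adjusted p of 0.455 and one of 0.608 without sheep 902 and 910. Without these sheep 3 of the 6 side-branch genes and 3 of the 13 genes of the NAD synthesis list were called, beside 43.1% of all genes tested.

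Of 15 NAD-consuming enzymes (sirtuins, poly-ADP-ribose polymerases and NAD hydrolases), 11 had positive and 4 negative estimates in liver, with a median of 0.30 and none called. SIRT7, a nuclear sirtuin, measured 278.2 to 455.3 in BPA livers and 220.9 to 275.1 in control livers, without overlap, and had a limma adjusted p of 0.293 (0.0401 without sheep 902 and 910). Every BPA liver was above every control liver for 3.63% of all genes tested. BST1, an ectoenzyme of NAD turnover, had a limma adjusted p of 0.291 and measured 47.41 to 90.94 in BPA livers and 81.04 to 962.9 in control livers, with the highest value in sheep 902 (limma adjusted p = 0.0222 without sheep 902 and 910). Without these sheep 5 of the 15 NAD-consuming enzymes were called, beside 43.1% of all genes tested.

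The pathway was far lower in muscle than in liver. All 7 members with a mean of at least 10 were called higher in liver, where 71.4% of the 15995 genes tested differed between the tissues in either direction and 36.1% were called higher in liver. The difference (liver minus muscle) was 7.21 ± 0.21 for TDO2 (SE; limma adjusted p = 4.1e-14), 7.40 ± 0.26 for HAAO (3.43e-13) and 6.99 ± 0.32 for QPRT (8.22e-12). It was 6.36 ± 0.44 for KMO (1.64e-09), 5.65 ± 0.48 for KYNU (2.31e-08) and 5.25 ± 0.47 for ACMSD (3.98e-08). For AFMID it was 4.79 ± 0.19 (1.83e-12), with the BPA liver values that picked the pathway among those averaged. In the control animals alone all 7 were again called higher in liver, as were 30.2% of all genes tested, and the AFMID difference was 4.16 ± 0.20.

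As a share of the liver mean, the muscle mean was 0.557% for HAAO, 0.642% for TDO2, 0.706% for QPRT, 0.9% for KMO, 1.64% for KYNU, 1.89% for ACMSD and 2.95% for AFMID. The 15 hepatocyte markers were at 0.586% to 1.99% of their liver level in the same muscle libraries, with ALB at 1.16%, and none was at 0 in any of them. IDO1, at 37.6%, had 2 to 6 reads in BPA muscles and 1 to 4 reads in control muscles and was not tested. The part of hepatocyte transcripts in the muscle values of the members was not tested.

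**Figure D4:**
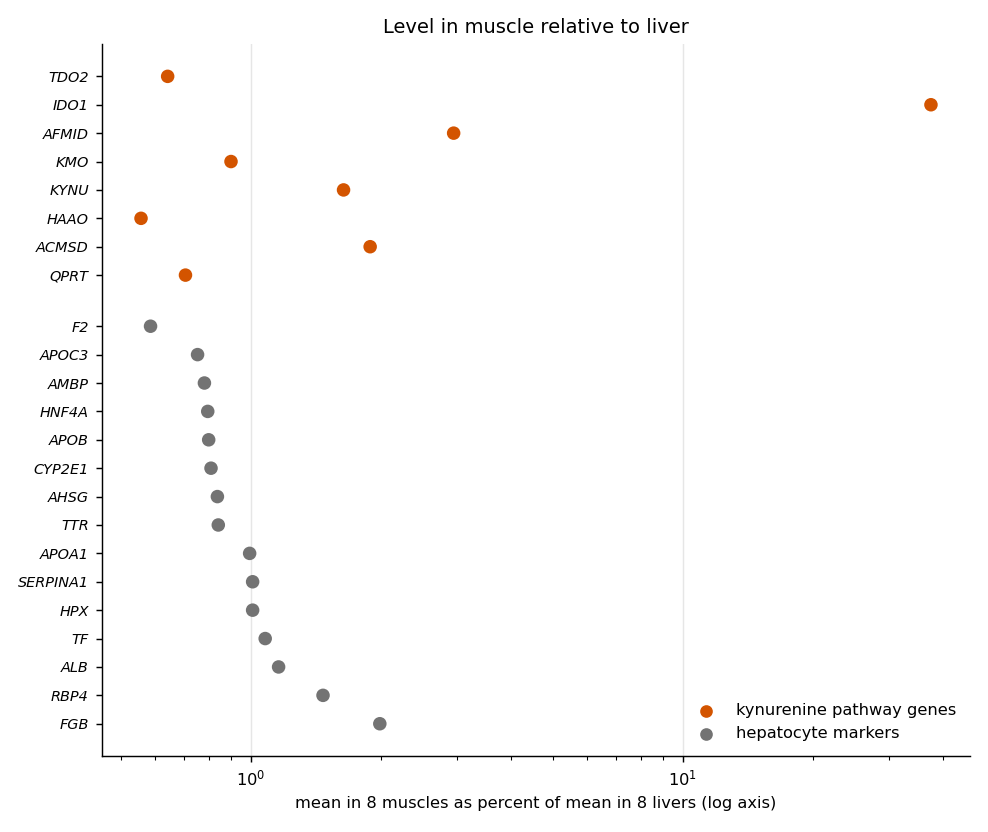
Mean level in 8 muscle libraries as percent of the mean level in 8 liver libraries (log x axis) for the 8 members (orange) and 15 hepatocyte markers (grey). TDO2, KMO, HAAO, QPRT, KYNU and ACMSD lie at 0.557% to 1.89%, in or next to the marker range of 0.586% to 1.99%, and AFMID (2.95%) and IDO1 (37.6%) lie above it.

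In muscle, no member passed the test between BPA and control animals, where 0.129% of the 14706 genes tested were called by limma. Of the 5 members tested, AFMID had a positive estimate and TDO2, KYNU, HAAO and QPRT had negative ones, with a median of -0.18 against -0.002 for all genes. KMO, ACMSD and IDO1 had a mean under 10. The counts behind these values were small, from 13 to 26 reads for TDO2 in BPA muscles and from 21 to 48 in control muscles.

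AFMID measured 62.4, 49.88, 42.11 and 51.07 in BPA muscles 910, 918, 977 and 984, against 49.92, 31.18, 32.86 and 38.43 in control muscles 902, 908, 924 and 928. The groups overlapped only through control muscle 902. The means were 51.4 ± 8.36 in BPA muscles and 38.1 ± 8.47 in control muscles (SD, n = 4 each), and the difference was 0.43 ± 0.20 (SE) with an unadjusted p of 0.0565 and a limma adjusted p of 0.654.

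TDO2 measured 28.97, 16.88, 18.25 and 14.59 in BPA muscles and 46.27, 40.45, 24.64 and 26.16 in control muscles. Only BPA muscle 910 reached into the control range. The means were 19.7 ± 6.38 in BPA muscles and 34.4 ± 10.7 in control muscles (SD, n = 4 each), a difference of -0.77 ± 0.29 (SE) with an unadjusted p of 0.0217 and a limma adjusted p of 0.522. The hepatocyte markers summed to 11440, 5455, 7827 and 7858 in BPA muscles and 16890, 11560, 10420 and 10950 in control muscles, and all 15 had negative estimates, with FGB, a fibrinogen chain, called lower (-1.35, limma adjusted p = 0.000896). When muscles were scaled to these markers, an alternative chosen after seeing the data, the TDO2 difference was -0.27 and that of AFMID 0.93, on a scale where the median of all genes moved to 0.50.

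KYNU measured 15.6, 6.14, 4.21 and 5.68 in BPA muscles and 21.92, 17.7, 7.04 and 14.72 in control muscles, with a limma adjusted p of 0.668. ACMSD was the only member without overlap in muscle, at 3.34, 4.60, 2.81 and 4.05 in BPA muscles and 14.61, 6.74, 7.04 and 5.72 in control muscles, which were 2 to 6 reads and 6 to 12 reads. It was untested for its low mean, and 4.53% of the genes tested in muscle had no overlap in either direction. HAAO measured 23.79 to 40.7 in BPA muscles and 29.34 to 59.66 in control muscles, with a limma adjusted p of 0.907. QPRT measured 8.42 to 11.14 in BPA muscles and 7.59 to 26.79 in control muscles, with a limma adjusted p of 0.938.

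**Figure D5:**
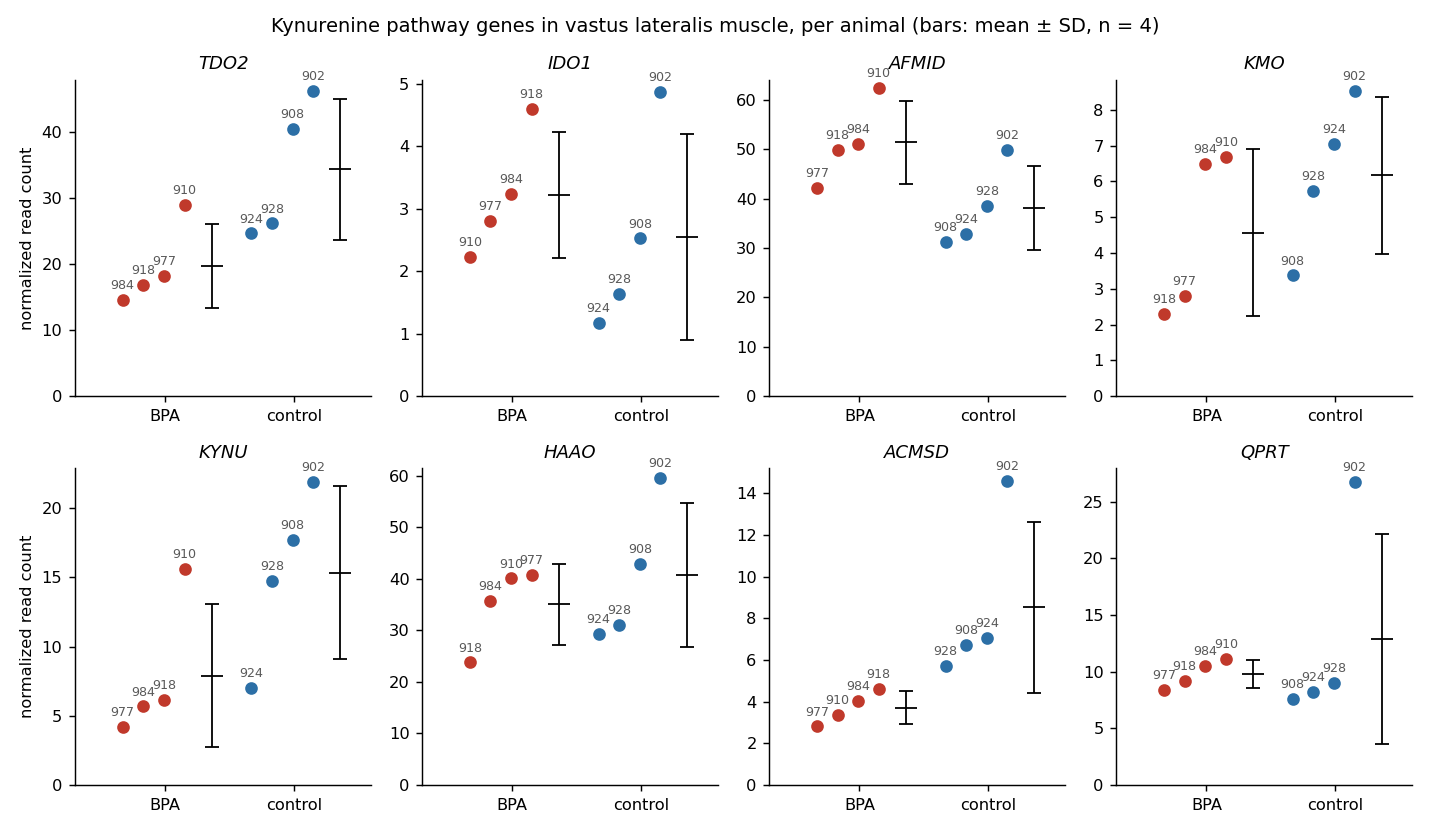
Normalized read count (y axis) of the 8 members in each BPA muscle (left, red) and control muscle (right, blue), labelled with the sheep number, with mean ± SD of 4 animals as bars. TDO2 is lower in 3 of 4 BPA muscles than in every control muscle, and control muscle 902 is the highest library of its group for all 8 genes.

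TDO2 had opposite signs in the 2 tissues, and the difference between its BPA effects did not pass the test. Its muscle values rested on 13 to 26 reads in BPA muscles and 21 to 48 in control muscles. Scaled to hepatocyte markers, its muscle difference was -0.27, where the median of all genes was 0.50. The part of hepatocyte transcripts in the opposite signs was not tested. The difference between the BPA effects on TDO2 (liver effect minus muscle effect) was 1.73 ± 0.42 (SE), with an unadjusted p of 0.000805 and a limma adjusted p of 0.195. No member and 0% of the 13677 genes tested were called for it by limma, with 2661 genes at an unadjusted p under 0.05, 0 called by edgeR and 148 by DESeq2. With DESeq2, which called 1.08% of genes, the adjusted p of TDO2 was 0.029. Without sheep 910 the limma adjusted p was 0.00444 in a fit that called 22.1% of genes, with a range of 0.00444 to 0.491 over all alternatives. The AFMID difference was 1.26, given as a description. It was 1.18 for KYNU (limma adjusted p = 0.481), 0.50 for HAAO (0.584) and 0.33 for QPRT (0.775).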

How the data were processed

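Ribosomal RNA was removed before a low-input kit for total RNA was applied, per the labels' protocols. The submitters' processing notes list DESeq2 1.24.0, Trimmomatic and FastQC. Which aligner, counter, annotation and build were used is not given in the sources used here. The authors deposited 1 table of normalized signal, in which each library's read counts are divided by its own size factor. Its values were whole multiples of 1 step per library (at least 99.9965% of values per library, within a tolerance of 0.1 read), so whole reads were recovered. The RefSeq table of ARS-UI_Ramb_v3.0 served for names and gene order only, and replaced 406 LOC names with a current symbol. No sequence was used here.

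The fit was limma 3.58.1 under R 4.3.3, separately in each tissue, and took log2(value + 1) of every gene whose mean was 10 or more. Variances were moderated by eBayes with an intensity trend, and p-values were adjusted by Benjamini-Hochberg over all genes tested. On this scale changes of low genes are understated. A fit of all 4 groups gave the contrast of liver with muscle (minimum mean of 10 over the 16 libraries) and the difference between BPA effects (minimum mean of 10 in each tissue). The threshold was an adjusted p of 0.05. Count tests on recovered reads, DESeq2 1.42.0 and the quasi-likelihood test of edgeR 4.0.16, were alternatives, beside other pseudocounts, filters and scalings, 1 fit of all libraries, the animal as a block, and leaving out libraries. Scripts were tested on simulated data. The precision of low values is set by their reads, and floors of 3 reads cover counting error only.

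The members, gene lists, tests and alternatives were chosen with earlier results of these data known. Besides the members, the rule named the 2 genes with the smallest p of each pathway list in each tissue, neighbouring genes, and the 5 genes most like AFMID and TDO2; a few genes that it selects are not reported here. Because AFMID in liver picked the pathway, no p is given for it between BPA and control livers or for the difference between the BPA effects of the tissues, and counts of called members leave it out in these 2 comparisons but not in liver against muscle or in muscle. The sheep number in the labels marks the same animal in both tissues, so liver and muscle are paired. The deviations of an animal's liver and muscle from their group means correlated by -0.101 to 0.118 across 13677 genes, so the pairing rests on the labels.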

Additional observations from a re-analysis of the deposited data

Results flagged for a closer look

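Of 32 groups of 4 libraries checked (8 genes in 4 groups), 5 held a library far from the other 3 by Dixon's criterion, and chance flags about 1 in 20 groups. AFMID in BPA liver 910 (1172) lay below the other BPA livers (2676 to 2804), and TDO2 in control liver 902 (1651) lay below the other controls (3142 to 3419). KYNU in BPA muscle 910 (15.6) lay above BPA muscles 918, 977 and 984 (4.21 to 6.14). ACMSD in control muscle 902 (14.61) and QPRT in control muscle 902 (26.79) lay above the other control muscles, which had 5.72 to 7.04 of ACMSD and 7.59 to 8.99 of QPRT. Every one of these values came from sheep 902 or 910. In the muscle of the same 2 animals the hepatocyte markers summed to 11440 (910) and 16890 (902), the highest sum of each group.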

How the results depend on the processing

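The number of members called was unchanged for 63 of the 67 alternative counts, and none of the 4 others was lower. In liver, 1 member (TDO2) was called when all 16 libraries were fitted together (0.96, limma adjusted p = 0.0425, where 2299 of 15689 genes were called). TDO2 was also called when control liver 902 and BPA liver 910 were left out together (0.84, 0.0167, where 6594 of 15296 genes were called). Its adjusted p otherwise ran from 0.08 to 1. For the difference between BPA effects, 1 member (TDO2) was called by DESeq2 (1.79), and leaving out each animal in turn gave 0 to 1 members, the 1 being TDO2 without sheep 910 (2.05, where 3020 of 13653 genes were called). Muscle stayed at 0 members and liver against muscle at 7. A minimum mean of 50 left no member to test in muscle or for the difference between effects.

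Of 405 alternative estimates for single members, 384 kept their direction and, where a p is given, their side of the threshold. Another 4 passed it and 15 changed sign. No p is given for AFMID in liver or in the difference between effects, so the threshold was not applied to it there. Leaving out each library in turn gave ranges in liver of -0.016 to 1.19 for KMO, -0.57 to 0.56 for KYNU, -0.11 to 0.61 for HAAO, -0.37 to 0.95 for ACMSD and -0.22 to 0.40 for QPRT. In muscle the range was -0.319 to 0.015 for HAAO, and for the difference between effects -0.12 to 0.77 for HAAO. Without sheep 902 and 910 the liver differences were -0.71 for KYNU, -0.13 for HAAO and -0.80 for ACMSD. Scaling to hepatocyte markers gave 0.32 for both HAAO and QPRT in muscle, where the median of all genes was 0.50. That scaling moved AFMID in liver to 2.18, and leaving out sheep 910 moved its difference between tissues to 1.66. The cause of these changes was not tested.

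Over all genes, muscle gave 19 calls with limma, 131 with DESeq2, 0 when all 16 libraries were fitted together and 235 when scaled to hepatocyte markers. With the animal as a replicate block, the TDO2 difference between BPA effects was 1.73 with a limma adjusted p of 0.267, with 0 members called, and 7 members were called between the tissues, so the block changed no call. With 4 animals a group, and 1 to 48 reads behind each muscle value of TDO2, KMO, KYNU, ACMSD and IDO1, depth limits the precision there, and what size of difference could have been called was not tested.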

Other observations

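Genes that bring tryptophan into cells or use it outside the kynurenine route mostly had negative estimates in liver: 11 of 14 tested were below and 3 above 0, with a median of -0.45 against -0.01 for all genes, and none was called by limma. SLC3A2, the heavy chain of the large neutral amino acid transporter, averaged 652.9 ± 227 in BPA livers and 1190 ± 326 in control livers (SD, n = 4 each), with a limma adjusted p of 0.256 (0.00504 without sheep 902 and 910, where 43.1% of all genes were called). SLC7A5, its light chain, measured 39.56 to 63.62 in BPA livers and 79.13 to 699.1 in control livers, with a limma adjusted p of 0.276 (0.065 without sheep 902 and 910). Without these sheep 5 of the 14 genes were called, 4 of them lower. In muscle 4 of the 10 tested had positive and 6 negative estimates. MAOA, a monoamine oxidase, averaged 193.5 ± 41.9 in BPA muscles and 159.7 ± 18.4 in control muscles (SD, n = 4 each; limma adjusted p = 0.753), and WARS, the tryptophan tRNA ligase, 699.6 ± 84.7 in BPA muscles and 747 ± 63.5 in control muscles (limma adjusted p = 0.854).

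Kynurenine is a ligand of the aryl hydrocarbon receptor, and 6 genes of that receptor's pathway were tested in each tissue with none called by limma: 3 had positive and 3 negative estimates in liver, and 2 positive and 4 negative in muscle. NQO1, a quinone reductase, measured 20.82 to 75.66 in BPA livers and 69.72 to 131.5 in control livers (limma adjusted p = 0.256, and 0.00404 without sheep 902 and 910). Without these sheep 4 of the 6 genes were called in liver, 3 of them lower, beside 43.1% of all genes tested. CYP1A1, a target of the receptor, averaged 20.2 ± 4.53 in BPA muscles and 27.1 ± 4.83 in control muscles (SD, n = 4 each; limma adjusted p = 0.739), and TIPARP, another target, 173.3 ± 31.6 in BPA muscles and 211.9 ± 23.2 in control muscles (limma adjusted p = 0.662).

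Of 10 genes for the cofactors and the glucocorticoid control of TDO2, 4 had positive and 6 negative estimates in liver and 3 positive and 7 negative in muscle, with none called by limma. ALAS1, the first enzyme of haem synthesis, averaged 4207 ± 1540 in BPA livers and 2783 ± 1420 in control livers (SD, n = 4 each; limma adjusted p = 0.428, and 0.569 without sheep 902 and 910). TSC22D3, a glucocorticoid-induced gene, averaged 607.3 ± 143 in BPA livers and 835.6 ± 202 in control livers (limma adjusted p = 0.386, and 0.0703 without sheep 902 and 910). Without these sheep 4 of the 10 genes were called in liver, all lower, beside 43.1% of all genes tested. TAT, a tyrosine aminotransferase of hepatocytes, measured 13.81 to 25.13 in BPA muscles and 26.16 to 49.92 in control muscles without overlap (limma adjusted p = 0.467). Such a lack of overlap, in either direction, held for 4.53% of all genes tested in muscle. PDXP, a pyridoxal phosphatase, averaged 161.5 ± 25 in BPA muscles and 129.8 ± 20.9 in control muscles (SD, n = 4 each; limma adjusted p = 0.668).

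In muscle, the other genes of the route gave no call either. Of 5 side-branch genes 1 had a positive and 4 negative estimates, with DHTKD1 at 436.9 ± 56.1 in BPA muscles and 486 ± 51.9 in control muscles (SD, n = 4 each; limma adjusted p = 0.787) and ALDH8A1 at 16.1 ± 4.5 in BPA muscles and 20.9 ± 5.52 in control muscles (0.805). Of 14 genes of the NAD synthesis list 5 had positive and 9 negative estimates. NAMPT, the salvage enzyme of nicotinamide, was at 885 ± 166 in BPA muscles and 1046 ± 118 in control muscles (limma adjusted p = 0.711). NADSYN1 was at 107.5 ± 22.3 in BPA muscles and 129.4 ± 9.83 in control muscles (0.724). Of 15 NAD-consuming enzymes 5 had positive and 10 negative estimates. PARP3 measured 303.1 to 347.6 in BPA muscles and 380.9 to 511.4 in control muscles (limma adjusted p = 0.295), and SIRT2 2315 to 2848 in BPA muscles and 2900 to 3625 in control muscles (0.498), both without overlap. Groups did not overlap in either direction for 4.53% of all genes tested in muscle.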
